A study of Mus musculus with 11 samples.

Results

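Interferon-stimulated genes are transcribed when a cell senses an interferon, and 34 of them are described here in mouse thymic epithelium carrying the R249C variant of Aire. They are the rows of the count table whose Ensembl identifiers map to 34 listed mouse symbols of interferon targets and of the Stat and Irf factors among them. The listing rule itself uses no measured value, though the list was drawn up with earlier results of these data known. All 34 were found among the 56691 genes of the table, and 34 of 34 passed the filter on low counts in each of the 4 comparisons below. Of these, 25 are grouped as targets of type I interferon. The other 9 (Gbp2, Gbp3, Gbp5, Gbp7, Igtp, Irgm1, Irf1, Cxcl9 and Cxcl10) are grouped as targets of type II interferon, although many genes of either group answer to both. No library was labelled as treated with an interferon.

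Type I interferons bind the receptor pair Ifnar1 and Ifnar2 and, through the kinases Jak1 and Tyk2, assemble a complex with Stat2 and Irf9 that binds the interferon-stimulated response element (ISRE). Interferon gamma, the type II interferon, acts through Ifngr1 and Ifngr2 on factors that bind gamma-activated sites (GAS). Medullary thymic epithelium is known for interferon production and signalling without infection, and loss of AIRE in humans is known for autoantibodies against type I interferons.

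Aire is the regulator that lets medullary thymic epithelial cells transcribe genes of other tissues, and R249C is a missense change in its SAND domain. The mice were NOD, a strain prone to autoimmune diabetes, aged 4 to 8 weeks, and EpCAM-positive thymic cells were sorted after CD45-positive cells had been depleted. Wild type (WT/WT) was sequenced in 3 libraries, the heterozygote (WT/R249C) in 5 and the homozygote (R249C/R249C) in 3. Batch A held WT/WT replicate 1, WT/R249C replicates 1 to 3 and the R249C/R249C replicates 1 to 3, and batch B held WT/WT replicates 2 and 3 and WT/R249C replicates 4 and 5. For WT/R249C replicates 4 and 5 the title reads WT/R249C while the genotype field reads R249C/R249C; they are grouped by title. A missense change does not show in a gene's count, so the counts do not check the genotype labels. The titles call the libraries biological replicates, but nothing says whether they pool mice, so p-values measure the spread between libraries.

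Library totals ran from 60560348 to 182319976 counts. Epcam stood at 355 to 521 CPM (counts scaled to the library total, as reads in 1000000) in all 11 libraries, and Ptprc, which encodes CD45, at 0.22 to 26.2 CPM. Pairwise correlations of log2(CPM + 1) over 18593 genes had a median of 0.890 over 55 pairs. WT/R249C replicate 3 stood apart, with correlations of 0.763 to 0.818, the smallest total and 22101 genes with a count against 23073 to 31180 elsewhere. Summed CPM of 8 B cell markers, mostly immunoglobulin chains, was 1425 to 3025 in WT/WT, 108 to 491 in heterozygotes and 267 to 550 in homozygotes, so WT/WT did not overlap either mutant group. Cd79a, Ms4a1 and Pax5 of that list were at 0 in at least 1 library. Summed CPM of 14 thymocyte markers was 200.3 to 263 in WT/WT, 79.2 to 254 in heterozygotes and 119 to 192 in homozygotes, so WT/WT did not overlap the homozygotes, and 7 of the 14, Cd4 and Cd8a among them, were at 0 in at least 1 library. The part of these markers in the differences below was not tested. In such bulk samples fewer cells of a type and less RNA per cell cannot be told apart.

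The letters of the response element lie in the promoters of many of these genes. The 6 stretches below show them in those members with values in every library whose promoter held them. RefSeq windows (build GRCm38.p6, 250 bases before to 50 after the transcript start) were given for 27 of the 34 members; Mx1, Mx2, Oas2, Usp18, Zbp1, Ifi27 and Rtp4 had none. The ISRE was searched as GAAANNGAAA and, for the other strand, TTTCNNTTTC. It was present in 16 of the 27 members (59.3%), against 3.99% of 27025 genes with a window. Among type I members 9 of 18 held it, and among type II members 7 of 9. Of the members with values in every library, Irf1, Irf7, Irf9 and Cxcl9 had windows without an ISRE match. GAS, searched as TTCNNNGAA, which reads the same on both strands, was in 9 of 27 members (33.3%) against 9.55% of all genes, and it overlapped an ISRE match in Bst2. The sequence is that of the C57BL/6J reference, not of NOD, and a match is a description of letters, not evidence of binding. The stretches read 5′ to 3′ along the gene's own strand, with capitals marking ISRE matches.
Isg15, chr4:156200855-156200916, minus strand: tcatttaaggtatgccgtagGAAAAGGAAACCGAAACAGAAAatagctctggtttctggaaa
Ifit1, chr19:34640765-34640833, plus strand: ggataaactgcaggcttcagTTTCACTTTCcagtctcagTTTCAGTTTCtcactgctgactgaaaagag
Stat2, chr10:128270256-128270305, plus strand: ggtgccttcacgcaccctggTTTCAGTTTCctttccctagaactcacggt
Gbp2, chr3:142620584-142620633, plus strand: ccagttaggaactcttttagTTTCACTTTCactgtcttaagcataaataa
Igtp, chr11:58199502-58199551, plus strand: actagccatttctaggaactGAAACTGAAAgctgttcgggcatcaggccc
Cxcl10, chr5:92349073-92349122, minus strand: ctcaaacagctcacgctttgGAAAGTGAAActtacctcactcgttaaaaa
Isg15 held 3 overlapping matches, the first beginning 78 bases before the start, and Ifit1 held 2 separate ones, the first 104 bases before it. The match of Igtp began 34 bases and that of Gbp2 59 bases before the start, while those of Cxcl10 and Stat2 lay at 213 and 222 bases.

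Every member had counts in all 11 libraries. Per kilobase of exon, mean levels over the libraries ran from 344 CPM for Isg15, 321 for Ifit3, 199 for Ifit1, 170 for Bst2 and 146 for Ifi35 down to 4.79 for Mx1, 3.31 for Oas3 and 3.22 for Gbp5. Isg15 and Ifit3 overlapped, with ranges of 226 to 469 and 226 to 497 CPM per kilobase. On the same scale Epcam averaged 203 and Aire 140 CPM per kilobase, so the most abundant members reached the level of the gene used for the sort. The coefficient of variation of CPM over the 11 libraries had a median of 26.7% over the members, against 30.8% over the 8765 genes whose mean lay in the members' range. It was 24.1% for the type I and 37.3% for the type II members, and ran from 8.08% for Ifi35, a Nmi-binding protein, to 63.9% for Oas2, an oligoadenylate synthetase.

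**Figure D1:**
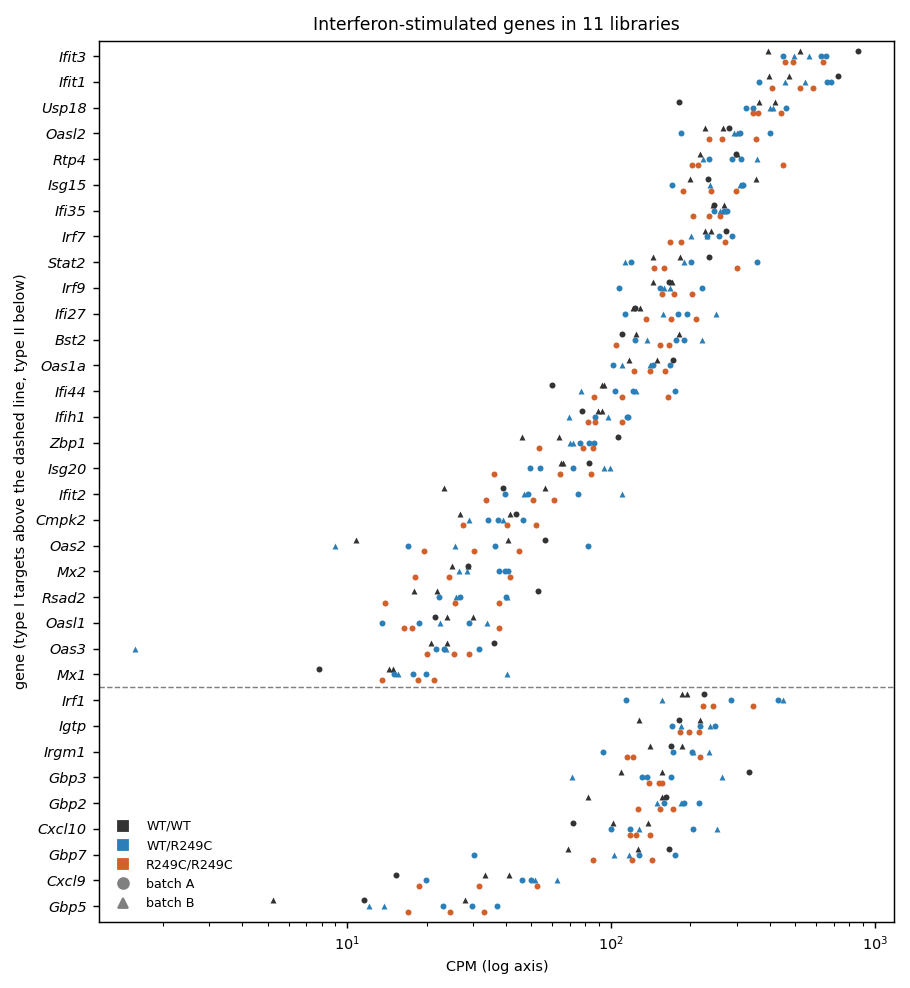
CPM of the 34 members on a log axis, 1 point per library, with colour for the Aire genotype by title and shape for the batch; type I targets lie above the dashed line and type II targets below, each ordered by mean CPM. The genotypes overlap in nearly every row, and single libraries lie far out for Oas3 (1.58 CPM in WT/R249C replicate 5) and Mx1 (40.5 CPM in the same library).

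The antiviral effectors are 14 members grouped here by role, among them genes that act on viral RNA. Values below are CPM in the order of the replicate numbers. Ifit1, which binds viral RNA lacking a host-type cap, was at 729, 473 and 398 in WT/WT, at 683, 658, 366, 546 and 457 in heterozygotes, and at 523, 585 and 409 in homozygotes. Mx1, a dynamin-like GTPase that acts against influenza viruses, was at 7.85, 14.4 and 14.9 in WT/WT, at 17.7, 19.96, 15.1, 15.6 and 40.5 in heterozygotes, and at 13.6, 21.4 and 18.5 in homozygotes. The Ifit1 ranges of the genotypes overlapped, with the highest value in WT/WT replicate 1 and the lowest in WT/R249C replicate 3. For Mx1 every WT/R249C library was above every WT/WT library, and R249C/R249C replicate 1 lay among the WT/WT libraries.

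Mx2, the related GTPase, was at 28.7, 28.8 and 24.9 CPM in WT/WT, at 40.8, 37.5, 39.5, 26.5 and 28.5 in heterozygotes, and at 18.02, 41.4 and 24.4 in homozygotes. Oas2, which makes the oligoadenylates that activate RNase L, was at 56.0, 10.9 and 40.7 CPM in WT/WT, at 17.01, 36.4, 81.7, 8.98 and 25.6 in heterozygotes, and at 19.6, 45.0 and 30.2 in homozygotes. Oas2 varied 9.10-fold between its lowest and highest library, and both ends lay in WT/R249C. Of the other effectors, Ifit3 averaged 594 ± 245 CPM in WT/WT (SD, n = 3), 558 ± 87.1 in heterozygotes (n = 5) and 530 ± 96.4 in homozygotes (n = 3), and its highest value, 867 CPM, was in WT/WT replicate 1. Ifit2, Oas1a, Oas3, Oasl1, Oasl2, Rsad2, Cmpk2, Isg20 and Bst2 had genotype means from 20.4 CPM (Oas3 in WT/R249C) to 297 CPM (Oasl2 in WT/R249C).

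The cytosolic sensors Ifih1, which recognises long double-stranded RNA, and Zbp1, which binds Z-form nucleic acids, had coefficients of variation of 16.4% and 22.2%. Ifih1 lay between 69.7 and 117 CPM in all libraries. Zbp1 was at 106, 46.2 and 63.4 CPM in WT/WT, at 82.4, 76.1, 86.3, 71.7 and 69.7 in heterozygotes, and at 53.5, 85.6 and 78.5 in homozygotes. The 3 WT/WT libraries of Zbp1 held both its highest and its lowest value.

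Isg15, the ubiquitin-like modifier, was at 233, 354 and 199 CPM in WT/WT, at 315, 317, 171, 238 and 309 in heterozygotes, and at 188, 299 and 239 in homozygotes. Usp18, the protease that removes Isg15 and restrains the type I receptor, was at 181, 363 and 419 CPM in WT/WT, at 462, 345, 324, 413 and 400 in heterozygotes, and at 362, 345 and 442 in homozygotes. Isg15 overlapped among the genotypes throughout. Usp18 was lowest in WT/WT replicate 1, and its other 10 libraries lay between 324 and 462 CPM.

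Among the transcription factors, Irf7, which amplifies type I interferon production, was at 273, 239 and 228 CPM in WT/WT, at 232, 287, 256, 202 and 231 in heterozygotes, and at 167, 270 and 184 in homozygotes. Irf9, the DNA-binding subunit of the type I complex, was at 166, 170 and 145 CPM in WT/WT, at 154, 221, 108, 159 and 168 in heterozygotes, and at 174, 203 and 156 in homozygotes. Stat2, its partner, was at 236, 182 and 144 CPM in WT/WT, at 119, 201, 357, 113 and 190 in heterozygotes, and at 146, 300 and 159 in homozygotes. The genotypes overlapped for all 3 factors. Stat2 was highest in WT/R249C replicate 3, the library that stood apart, where Irf9 was at its lowest.

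Ifi27, strongly induced by type I interferon, was at 123, 129 and 121 CPM in WT/WT, at 180, 194, 113, 157 and 251 in heterozygotes, and at 135, 211 and 169 in homozygotes. Its WT/WT libraries agreed closely, and all 3 R249C/R249C libraries were above them. Ifi44 averaged 82.3 ± 19.7 CPM in WT/WT (SD, n = 3), 120 ± 35.9 in heterozygotes (n = 5) and 120 ± 39.8 in homozygotes (n = 3). Rtp4 and Ifi35 ran from 203 to 448 and from 205 to 276 CPM over all libraries.

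Among the type II targets, Irf1, the factor that carries much of the interferon gamma response, was at 226, 186 and 194 CPM in WT/WT, at 432, 285, 114, 451 and 156 in heterozygotes, and at 345, 244 and 224 in homozygotes. Gbp2, a guanylate-binding protein that attacks the vacuoles of intracellular pathogens, was at 162, 156 and 82.0 CPM in WT/WT, at 190, 216, 160, 184 and 149 in heterozygotes, and at 172, 127 and 154 in homozygotes. Igtp, an immunity-related GTPase of the same defence, was at 181, 128 and 218 CPM in WT/WT, at 219, 248.6, 171, 238 and 185 in heterozygotes, and at 198, 217 and 182 in homozygotes. Irf1 was highest in WT/R249C replicates 1 and 4 and lowest in WT/R249C replicate 3, while Gbp2 and Igtp overlapped among the genotypes with a narrower spread.

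Cxcl9 and Cxcl10 encode chemokines that draw Cxcr3-positive T cells. Cxcl9 was at 15.3, 33.3 and 41.2 CPM in WT/WT, at 50.0, 19.9, 46.1, 62.6 and 51.5 in heterozygotes, and at 31.7, 18.8 and 52.3 in homozygotes. Cxcl10 was at 71.9, 102 and 139 CPM in WT/WT, at 204, 99.8, 118, 253 and 128 in heterozygotes, and at 140, 118 and 124 in homozygotes. Both were lowest in WT/WT replicate 1 and highest in WT/R249C replicate 4. The remaining type II members were more uneven, with Gbp5 between 5.23 and 37.1 CPM, Gbp3 between 71.0 and 334 CPM, Gbp7 between 30.2 and 175 CPM and Irgm1 between 93.6 and 236 CPM.

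With both copies of Aire carrying R249C, no interferon-stimulated gene of the 34 passed the test against WT/WT. Of the 34 members 19 had a log2 fold change above 0, a share close to the 49.0% of all genes tested, and the median was 0.04 against -0.02 over all 26980 genes. By group, 12 of 25 type I members and 7 of 9 type II members were higher, with medians of -0.02 and 0.19. The count of members called was 0 in edgeR's quasi-likelihood test at a Benjamini-Hochberg adjusted p below 0.05 (0.0% of all genes), and 0 in limma voom and DESeq2 (1.51% of all genes by DESeq2). At an unadjusted p below 0.05, DESeq2 held 2 members and limma voom 1, against 1946 and 1105 of 26980 genes. The edgeR fit held 1 member at that level, against 3.21% of all genes.

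That member was Mx1, at a log2 fold change of 1.10 (95% interval 0.10 to 2.11, unadjusted p = 0.0346, edgeR adjusted p = 1). Mx1 stood at 0.56 by limma voom, with an unadjusted p of 0.267. DESeq2 gave 1.14 for it, with an unadjusted p of 0.0139 (DESeq2 adjusted p = 0.360). Next in order of p in the edgeR fit came Usp18 at 0.65 (-0.04 to 1.33), Ifi27 at 0.62 (-0.11 to 1.35) and Irf7 at -0.38 (-0.86 to 0.09). The chemokines Cxcl10 and Cxcl9 stood at 0.73 (-0.19 to 1.65) and 0.87 (-0.31 to 2.06). None of these estimates passed the test. Over the alternatives they ran from 0.56 to 1.30 for Mx1, 0.20 to 1.27 for Usp18, 0.41 to 0.89 for Ifi27, -0.60 to -0.22 for Irf7, 0.35 to 1.28 for Cxcl10 and 0.25 to 1.38 for Cxcl9. Ifi27 was the 1 member whose CPM did not overlap between the groups, against 8.1% of all genes. For 15 of 34 members the 95% interval lay wholly within a 2-fold change in either direction, and the intervals of Oas3, Gbp5 and Oas2 were the widest.

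All R249C/R249C libraries lay in batch A, beside WT/WT replicate 1. In batch A alone 16 members were higher and the median was -0.05, against 0.20 over all genes. Without WT/WT replicate 1 the median was 0.29 with 25 members higher, and Ifit3 turned from -0.37 to 0.20. Over all genes the median was then -0.03, with 48.8% higher. That fit has WT/WT in batch B only and R249C/R249C in batch A only. It therefore links them through the WT/R249C libraries, whose batch B libraries have the contradicting labels. WT/WT replicate 1 held the highest level of 7 members, Ifit1, Ifit3 and Gbp3 among them, and the lowest of 5, which included Mx1, Usp18, Cxcl9 and Cxcl10.

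**Figure D2:**
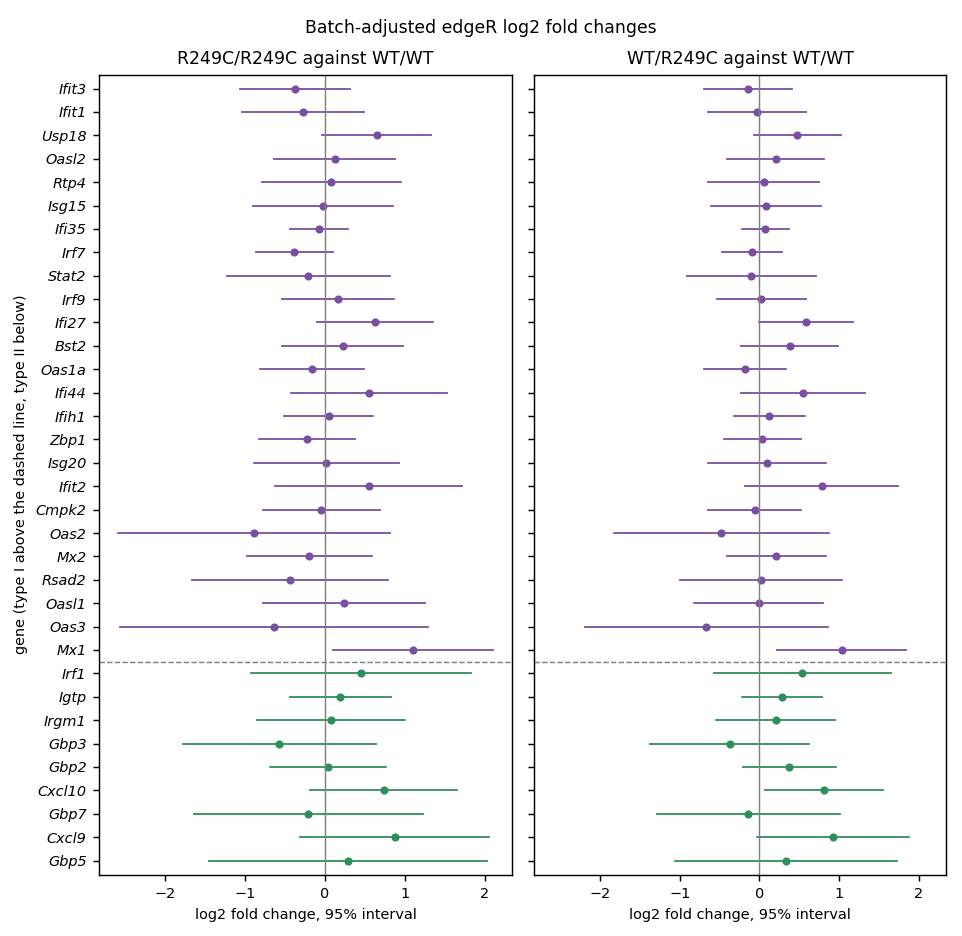
Log2 fold changes of the 34 members with 95% intervals in the batch-adjusted edgeR fit, R249C/R249C against WT/WT on the left and WT/R249C against WT/WT on the right; purple marks type I and green type II targets. Both panels share the WT/WT libraries. Most intervals cross 0, Mx1 lies above it in both panels, and Cxcl10 lies above it on the right.

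With 1 copy of R249C, too, no member passed. The comparison uses the WT/WT libraries already set against the homozygotes. In WT/R249C against WT/WT 23 of 34 were higher against 51.5% of all genes, and the median log2 fold change was 0.09 against 0.02 over all genes. Higher members numbered 16 of 25 of type I and 7 of 9 of type II, with medians of 0.05 and 0.33. Called members were again 0 by edgeR (0.0% of all genes), by limma voom and by DESeq2 (1.02% of all genes). At an unadjusted p below 0.05, DESeq2 held 4 members and limma voom 3, against 2182 and 1493 of 26980 genes. The edgeR fit held 2 members at that level, against 3.48% of all genes.

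Both genes at that level in the edgeR fit were higher: Mx1 at 1.03 (0.23 to 1.84, unadjusted p = 0.0177, edgeR adjusted p = 1) and Cxcl10 at 0.81 (0.07 to 1.55, unadjusted p = 0.0350, edgeR adjusted p = 1). Ifi27 followed at 0.58 (-0.01 to 1.17), Cxcl9 at 0.92 (-0.03 to 1.87), Usp18 at 0.47 (-0.07 to 1.02), Ifit2 at 0.78 (-0.18 to 1.73), Ifi44 at 0.55 (-0.23 to 1.33) and Gbp2 at 0.37 (-0.21 to 0.95). Over the alternatives these ran from 0.66 to 1.29 for Mx1, 0.54 to 1.31 for Cxcl10, 0.35 to 0.74 for Ifi27, 0.64 to 1.51 for Cxcl9 and 0.096 to 1.20 for Usp18. Mx1 had an unadjusted p of 0.108 by limma voom and of 0.00563 by DESeq2 (DESeq2 adjusted p = 0.205). Without WT/R249C replicate 5, Mx1 stood at 0.67 (unadjusted p = 0.123, edgeR adjusted p = 1). Mx1 was the 1 member whose CPM did not overlap, against 2.93% of all genes. The interval lay within 2-fold for 20 of 34 members. Batch A gave 17 members higher and a median of -0.0032, where all genes had a median of 0.40, and batch B gave 27 and 0.23, against -0.04 over all genes. Every WT/R249C library of batch B has the contradicting labels. With these libraries left out, 17 members were higher and the median was -0.0034, against 0.28 over all genes.

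Within batch A the homozygotes and heterozygotes could be set side by side, 3 libraries each. In R249C/R249C against WT/R249C no member passed, and 11 of 34 were higher against 50.8% of all genes. The median log2 fold change was -0.10, with 9 of 25 type I and 2 of 9 type II members higher. EdgeR called 0 members (0.0% of all genes) and so did DESeq2 (0.139%) and limma voom, and 0 members had an unadjusted p below 0.05 (1.08% of all genes). The smallest unadjusted p belonged to Mx2 at -0.46 (-1.32 to 0.40), Irf7 at -0.29 (-0.85 to 0.27) and Gbp2 at -0.29 (-0.86 to 0.28). No member had groups that did not overlap, against 8.85% of all genes, and 22 of 34 intervals lay within 2-fold. The count of higher members rested on single libraries, from 4 without WT/R249C replicate 3 to 20 without WT/R249C replicate 2.

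Batch B and batch A were also compared at equal genotype by title, and both WT/R249C libraries of batch B have the contradicting labels. No member passed by edgeR (0.0% of all genes), limma voom or DESeq2 (0.671%), and 12 of 34 were higher in batch B against 49.2% of all genes, with a median log2 difference of -0.07. Zbp1 was the 1 member with an unadjusted p below 0.05, against 3.58% of all genes, at -0.49 (-0.96 to -0.02, unadjusted p = 0.0413, edgeR adjusted p = 1). Oas2 stood at -1.28 (-2.62 to 0.05) and Mx1 at 0.73 (-0.03 to 1.49). At that level DESeq2 and limma voom held 4 members each, against 2167 and 1522 of 26980 genes. The replicate block held 7, against 1356 genes. With the contested libraries left out, 10 members were higher and the median was -0.20, against 0.21 over all genes. The batches are then compared through WT/WT alone, with only replicate 1 in batch A. Without WT/WT replicate 1 the higher members numbered 19, in a fit that compares the batches through WT/R249C alone.

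The mean log2(CPM + 1) over members summarises each library. Over the 25 type I targets it was 6.63 ± 0.11 in WT/WT (SD, n = 3), 6.75 ± 0.12 in heterozygotes (n = 5) and 6.68 ± 0.25 in homozygotes (n = 3). Over the 9 type II targets it was 6.56 ± 0.17, 6.84 ± 0.32 and 6.76 ± 0.16 in the same order. The genotype means lay within 1 SD of the most variable group of each. The libraries ranked differently for the 2 types. R249C/R249C replicate 2 was highest for type I, at 6.96, and ninth for type II, at 6.60. WT/R249C replicate 4 was seventh for type I, at 6.63, and second for type II, at 7.15, just under WT/R249C replicate 1 at 7.16.

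**Figure D3:**
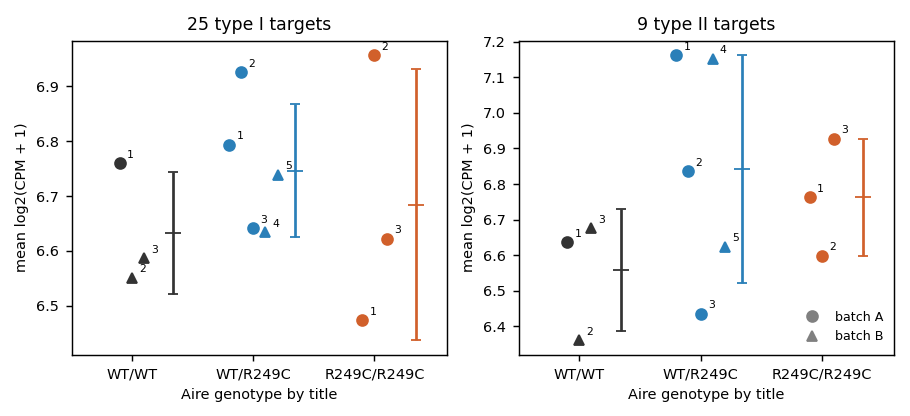
Mean log2(CPM + 1) per library over the type I targets (left) and the type II targets (right), by Aire genotype; numbers are replicates, shape is the batch, and the bars beside the points are mean ± SD. The axes do not start at 0. R249C/R249C replicate 2 tops the left panel at 6.96, and WT/R249C replicates 1 and 4 top the right panel at 7.16 and 7.15.

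Transcripts of the interferons themselves were scarce. A count of 0 allows up to 3 counts, which is 0.0165 to 0.0495 CPM by library and covers counting error only. Ifnb1, the interferon beta gene, had counts in 2 of 11 libraries, at 0.45 CPM in WT/WT replicate 3 and 1.30 CPM in WT/R249C replicate 1. Ifng had counts in 4 libraries and reached 2.20 CPM in R249C/R249C replicate 3. The type III interferons Ifnl2 and Ifnl3 had counts in the same 7 libraries and were at 0 in WT/WT replicate 1, WT/R249C replicate 5 and R249C/R249C replicates 2 and 3. These genes are near copies of each other, so counts may be split between them.

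Ifnl2 was at 3.85 and 4.59 CPM in WT/R249C replicates 1 and 4, its highest values, and at 2.56 CPM or less elsewhere. Ifnl3 was likewise highest there, at 4.49 and 3.00 CPM, and at 1.99 CPM or less elsewhere. The same libraries were the highest for Irf1, at 432 and 451 CPM, and for Cxcl10, at 204 and 253 CPM. The other type II members did not share this. Gbp2, Gbp7 and Igtp were highest in WT/R249C replicate 2, Irgm1 in WT/R249C replicate 5 and Gbp3 in WT/WT replicate 1. Cxcl9 was highest in WT/R249C replicate 4, and Gbp5 in WT/R249C replicate 1 but at 12.1 CPM in replicate 4. The type I scores of WT/R249C replicates 1 and 4 ranked 3 and 7 of the 11, and their type II scores 1 and 2. These libraries were also the most alike of all pairs over the whole transcriptome, at a correlation of 0.954, and replicate 4 has the contradicting labels. Their summed macrophage and monocyte markers were 227 and 220 CPM, inside the range of 72.3 to 290 CPM over all libraries. Summed thymic epithelium markers were 3484 and 4392 CPM (range 2558 to 4392), and cortical epithelium markers 3494 and 4954 CPM (range 2196 to 4954). Replicate 4 was thus the highest library for both. Mature medullary epithelium markers were 11632 and 11668 CPM (range 8441 to 12261). The part of any of these in the shared high values was not tested.

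**Figure D4:**
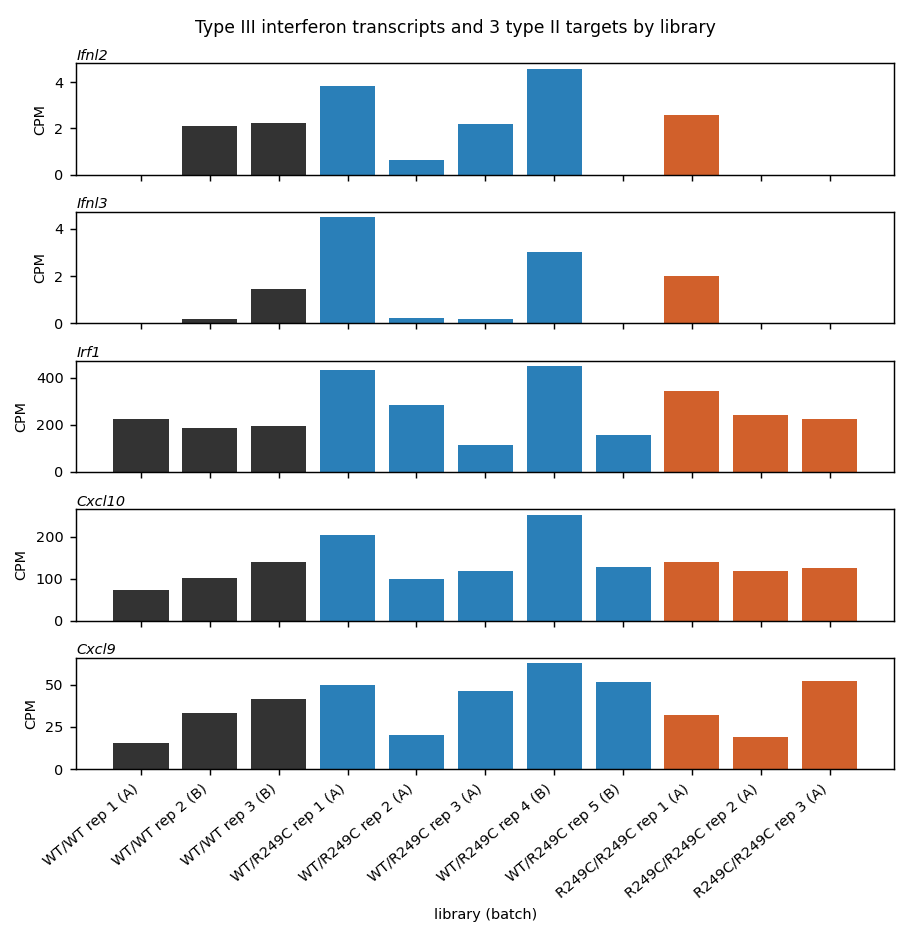
CPM of Ifnl2, Ifnl3, Irf1, Cxcl10 and Cxcl9 in each of the 11 libraries, coloured by Aire genotype, with the batch in parentheses; each panel has its own axis from 0. WT/R249C replicates 1 and 4 hold the highest bars of the first 4 genes, up to 4.59, 4.49, 451 and 253 CPM.

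The receptor chains Ifnar1 and Ifngr1 were present in every library. Ifnar1, the type I receptor chain that binds Tyk2, averaged 123 ± 11.7 CPM in WT/WT (SD, n = 3), 114 ± 30.3 in heterozygotes (n = 5) and 101 ± 23.03 in homozygotes (n = 3). Ifngr1, the ligand-binding chain for interferon gamma, averaged 100.2 ± 16.6, 90.8 ± 23.9 and 105 ± 6.8 CPM in the same order. The lambda receptor chain Ifnlr1 was low, at 0 to 17.2 CPM.

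By edgeR, 0 of the tested members of the pathway lists passed in either direction in any of the 4 comparisons, and limma voom and DESeq2 called 0 as well. In R249C/R249C against WT/WT the unadjusted p was below 0.05 for 0 of 6 receptors, 1 of 5 further interferon regulatory factors, 1 of 11 genes of nucleic acid sensing, 0 of 7 inhibitors and 0 of 4 tested ligands, against 3.21% of all genes. At that level there were 0 in WT/R249C against WT/WT (3.48% of all genes), 0 in R249C/R249C against WT/R249C (1.08%) and 1, Irf8, between the batches (3.58%). Irf2, which opposes Irf1 at shared sites, stood at 0.82 (0.12 to 1.52, edgeR unadjusted p = 0.0264) in R249C/R249C against WT/WT. All 5 of the further regulatory factors had an estimate above 0 there, as did 49.0% of all genes. Samhd1, which depletes deoxynucleotides, stood at 0.65 (0.14 to 1.16, edgeR unadjusted p = 0.0175) in the same comparison. Neither gene passed the test after adjustment. Socs1, a feedback inhibitor of both pathways, averaged 109 ± 42.1 CPM in WT/WT, 139 ± 30.3 in heterozygotes and 150 ± 12.4 in homozygotes, with an unadjusted p of 0.175 in R249C/R249C against WT/WT in the edgeR fit.

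Near copies were looked at for 3 members, and the other members were not searched for copies. Ifit3 averaged 560 CPM over the 11 libraries and its copy Ifit3b 249.3 CPM. Oas1a averaged 139 CPM, Oas1g 68.7 CPM and Oas1b 8.92 CPM. Ifi27 averaged 162 CPM beside 390 CPM for Ifi27l2a. The sources used here do not say how reads shared by such copies were counted, so the levels of these members are uncertain to that extent.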

How the data were processed

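The values the authors deposited are raw counts, whole numbers for each gene in each library. FastQC, HISAT2, StringTie and the mouse build mm39 are named in the submitters' processing notes. Versions, the annotation, strand use and whether counts were tallied or derived from coverage are not given in the sources used here. The word trimmed stands in the column names of batch A alone.

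Identifiers were matched to symbols through GENCODE M21, used for names and exon lengths: 52073 of 56691 genes had a symbol, holding at least 99.7% of each library's counts. Differences were tested on the counts in R 4.3.3 with edgeR 4.0.16 (TMM, filterByExpr, robust quasi-likelihood test, two-sided), adjusted by Benjamini-Hochberg over all genes tested at 0.05. WT/WT was compared with each mutant, and batch B with batch A, in 1 fit of the 11 libraries with genotype and batch, and homozygotes with heterozygotes inside batch A (6 libraries). Fold changes and 95% intervals come from these fits, while CPM is not batch-adjusted. Reads carry no molecular identifiers. The fit was tested on simulated data.

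DESeq2 1.42.0, limma 3.58.1 (voom with quality weights), scalings, filters, the replicate block, batches, contested labels and leaving out each library were alternatives. The count of higher members and the 4 non-member genes given with folds were added after seeing the data. Members and lists (171 of 174 entries matched) were chosen with earlier results of these data known. The genes with values in every library are 11 fixed members and the 3 of smallest p per comparison. Fold changes are printed for the members of smallest p.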

Additional observations from a re-analysis of the deposited data

Results flagged for a closer look

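Mx1 in WT/R249C replicate 5 stood at 40.47 CPM, and the other WT/R249C libraries ran from 15.1 to 19.96 CPM, a gap of 0.808 of the group's range against a limit of 0.71 for 5 samples. All 34 members were looked at in this way in WT/R249C and 1 was picked out. By chance about 5% of such groups are picked out, so this number is near what chance gives. The library has contradicting genotype labels. Without it the log2 fold change of Mx1 in WT/R249C against WT/WT stood at 0.67, against 1.03 with it.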

How the results depend on the processing

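Called members numbered 0 in all 4 comparisons under every alternative run, by every tool. In R249C/R249C against WT/WT the median log2 fold change of the members ran from -0.088 to 0.29 when 1 library was left out, and Ifit3 ran from -0.51 to 0.20, above 0 without WT/WT replicate 1. The median of 0.29 came from that same fit, in which WT/WT lay in batch B only. In WT/R249C against WT/WT the median ran from 0.029 to 0.24 and was 0.23 in batch B only. In R249C/R249C against WT/R249C the higher members numbered 4 by limma voom and 4 to 20 when 1 library was left out, with medians from -0.25 to 0.031. In batch B against batch A they numbered 10 to 19, with medians from -0.22 to 0.041. With the contested libraries counted as R249C/R249C, 22 members were higher in R249C/R249C and 19 in WT/R249C against WT/WT. In the replicate block, members called stayed at 0 and 15, 16, 14 and 13 members were higher in the 4 comparisons, with medians of -0.04, -0.01, -0.05 and -0.06, while the median of all genes moved to 0.30, 0.33, 0.03 and 0.49. Deviations of libraries sharing a replicate number correlated at -0.162 to 0.219. Some of these pairs span the batches, and pairs of unlike number were not set beside them. Whether the numbers pair the libraries therefore cannot be told from these values. Genes called over the whole table were 0 by edgeR and limma voom, and 408, 276, 33 and 181 by DESeq2. The cause of these shifts was not tested. The wide intervals of low members, such as Oas3 and Gbp5, limit what their values show.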

Other observations

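Interferon targets outside the 34 members were followed as 28 type I and 20 type II genes. In R249C/R249C against WT/WT, 14 of the 28 and 12 of the 20 had a log2 fold change above 0, with medians of 0.03 and 0.06 and 0 called by edgeR in either list (3 and 1 at an unadjusted p below 0.05, against 3.21% of all genes). DESeq2 called 1 of the genes in both lists, against 1.51% of all genes, and limma voom 0. That gene was Helz2, a helicase and nuclear receptor coactivator, at a DESeq2 log2 fold change of 1.41 (DESeq2 adjusted p = 0.0222), and at 1.39 (95% interval 0.56 to 2.22, edgeR adjusted p = 1) in the edgeR fit. Helz2 was at 10.7, 17.7 and 16.9 CPM in WT/WT, at 26.3, 17.2, 37.0, 26.7 and 30.5 CPM in WT/R249C, and at 24.5, 34.6 and 40.4 CPM in R249C/R249C. All 3 R249C/R249C libraries were above the WT/WT libraries, and WT/R249C replicate 2 lay among the latter. Over the alternatives its log2 fold change in R249C/R249C ran from 1.11 to 1.62 and its adjusted p from 0.0222 to 1.

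In WT/R249C against WT/WT, 15 of the 28 and 14 of the 20 were above 0, with 0 called by edgeR, DESeq2 or limma voom, and Helz2 stood at 0.97 (0.31 to 1.63, edgeR adjusted p = 1). Gbp9, a further guanylate-binding protein, stood at 0.78 (0.21 to 1.36, edgeR adjusted p = 1) in R249C/R249C against WT/WT. Ifit3b, the copy of Ifit3, was at 465 CPM in WT/WT replicate 1, its highest library, and between 174 and 284 CPM in the other 10.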
